A study of Homo sapiens with 12 samples.

Results

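The genes described here lie on chromosome 6 around HCP5, a long non-coding RNA gene of the major histocompatibility complex (MHC). They are the genes of the deposited table whose exons all fall between 31000000 and 32000000 of chromosome 6 on GRCh38, 91 of the table's 38516 genes with HCP5 included. Membership followed from position alone, while the stretch itself was chosen with earlier results of these data known. By GENCODE release 29, which matched 89 of them by position, 61 were protein coding, 9 were pseudogenes, 8 were small RNA genes and 11 were other non-coding genes. RNA had been sequenced from KYSE150 and KYSE510, established cell lines of human esophageal squamous cell carcinoma, each as control cells and as cells in which HCP5 was silenced, with 3 libraries in each of the 4 groups. All cells were grown in RPMI-1640 with 10% FBS, and RNA was taken with TRIzol. The letters sh open every title, also of controls, without being explained, and all silenced libraries carry the same code in their titles. Silencing was thus compared within lines, and the control libraries gave a comparison of the lines themselves. Nothing in the labels says that replicates were separate cultures, so p-values measure only the spread between these libraries.

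The MHC is a dense stretch of immune and housekeeping genes. Its class I genes HLA-B and HLA-C encode cell-surface molecules that show peptides from inside the cell to cytotoxic T cells. MICA and MICB encode relatives of these molecules that appear on stressed cells and are bound by NKG2D, a receptor of natural killer cells. The class III stretch beside them holds genes of tumour necrosis factor and its relatives, of the heat shock protein HSP70, of complement, and of RNA handling. HCP5 is transcribed between MICA and MICB, although its first listed exon in the deposited table overlaps MICA. A non-coding RNA can act on genes beside its own locus or elsewhere, and reading the neighbours of a silenced locus is a usual way to look at the former.

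The stretch around the HCP5 start is printed first because the gene that moved most with silencing lies across it. RefSeq places the start at base 251 of this 300-base promoter window (250 before the start and 50 after), on the plus strand of chr6:31462930-31463229 (GRCh38.p14). The 107 capitals mark bases that belong both to an HCP5 exon and to the exon of AL645933.1, an unprocessed pseudogene on the minus strand, in the deposited table.
HCP5: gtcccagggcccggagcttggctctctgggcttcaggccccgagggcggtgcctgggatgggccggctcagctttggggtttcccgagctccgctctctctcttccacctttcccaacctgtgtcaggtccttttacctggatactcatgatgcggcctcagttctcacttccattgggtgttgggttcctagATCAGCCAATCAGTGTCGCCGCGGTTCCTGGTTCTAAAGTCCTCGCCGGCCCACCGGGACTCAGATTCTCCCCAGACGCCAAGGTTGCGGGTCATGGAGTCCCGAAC
In that table HCP5 runs from 31400702 to 31477506 and has 3138 exon bases, of which the second listed exon begins at 31463123. AL645933.1, listed under its clone name XXbac-BPG181B23.6, runs from 31462728 to 31463336 and has 609 exon bases. The pair shares 157 bases on opposite strands, 25.8% of the pseudogene, and 19.5% of the pseudogene's 50-base words occur in HCP5 and in no other annotated transcript. HCP5 also shares 62 bases with MICA on its own strand.

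The bases before the starts of HSPA1A, HSPA1B, MICA and MICB are shown because these genes form pairs of relatives, of which HSPA1A, HSPA1B and MICB passed the test between the control lines and MICA did not. Capitals mark matches to GAANNTTC or TTCNNGAA, pairs of inverted GAA units as in the heat shock element, the site bound by heat shock factors; each word reads the same on both strands and the 2 can overlap. The stretches of 250 bases lie at chr6:31815293-31815542, chr6:31827488-31827737, chr6:31403345-31403594 and chr6:31497895-31498144, all on the plus strand.
HSPA1A: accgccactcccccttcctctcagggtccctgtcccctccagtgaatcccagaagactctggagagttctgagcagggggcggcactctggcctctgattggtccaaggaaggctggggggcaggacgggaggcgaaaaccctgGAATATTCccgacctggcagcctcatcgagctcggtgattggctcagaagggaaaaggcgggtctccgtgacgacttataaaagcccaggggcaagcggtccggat
HSPA1B: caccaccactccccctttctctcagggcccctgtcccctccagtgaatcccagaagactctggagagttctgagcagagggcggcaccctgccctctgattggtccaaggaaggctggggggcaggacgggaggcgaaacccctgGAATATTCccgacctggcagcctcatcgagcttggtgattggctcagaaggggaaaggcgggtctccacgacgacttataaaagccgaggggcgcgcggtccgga
MICA: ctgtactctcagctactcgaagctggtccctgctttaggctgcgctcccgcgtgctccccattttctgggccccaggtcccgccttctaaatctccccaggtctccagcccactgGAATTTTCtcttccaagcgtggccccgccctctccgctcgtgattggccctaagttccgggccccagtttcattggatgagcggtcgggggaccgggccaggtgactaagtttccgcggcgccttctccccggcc
MICB: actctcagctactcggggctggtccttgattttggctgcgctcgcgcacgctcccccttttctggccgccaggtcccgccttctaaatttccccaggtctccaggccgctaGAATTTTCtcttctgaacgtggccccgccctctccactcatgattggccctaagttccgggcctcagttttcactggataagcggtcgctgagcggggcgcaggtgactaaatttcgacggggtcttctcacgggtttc
HSPA1A and HSPA1B both held GAATATTC, 106 and 105 bases before the start. MICA and MICB both held GAATTTTC, 135 and 139 bases before it. In the full 300-base windows a match was found in 11 of the 71 RefSeq promoters of the stretch (15.5%) and in 13.5% of 35116 RefSeq promoters. Such words are thus common, and a match describes the letters and no binding.

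All 12 libraries held squamous epithelial markers, with 8 of 8 markers above 1 RPKM in a library of every group. Of 13 immune markers in the table, CD68 alone, a gene of lysosomes, reached 1 RPKM (29.7 to 47.1), and PTPRC, the pan-leukocyte marker CD45, stayed at or below 0.01. The 8 fibroblast and endothelial markers summed to 0.136 to 0.272 RPKM in KYSE150 and to 1.20 to 2.87 in KYSE510, where CDH5 reached 2.03. The squamous marker TP63 was higher in silenced cells averaged over lines (log2 difference 0.32, limma adjusted p 0.0483). Reads assigned to genes ran from 20035025 to 28202422 per library, and in KYSE150 each silenced library (26281327 or more) was deeper than each control (22700935 or fewer). Values are RPKM, reads scaled to exon length and library size, and differences were taken between values of log2(RPKM + 0.5), which makes those of low genes too small. In bulk RNA, fewer cells of a type and less RNA per cell cannot be told apart.

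Of the 91 genes, 64 reached 0.5 RPKM in at least 3 libraries and were tested, and the other 27 stayed at or below 0.704 RPKM in every library. A mean of 1 RPKM was reached by 50 genes and of 10 by 22. The most abundant were HSPA1B (377.6 RPKM over 12 libraries), HSPA1A (197.4), HLA-C (98.1), the chloride channel family gene CLIC1 (78.1), the readthrough gene ATP6V1G2-DDX39B (74.2) and HLA-B (52.9). The readthrough gene lies wholly within exons of DDX39B and other genes, so its level cannot be separated from theirs. Exon bases shared with another gene were present in 56 of the 91, and 5 lay wholly within other genes' exons and still had reads. How the authors' counting divided reads in shared bases is not given in the sources used here.

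Few genes were called by silencing, in the stretch as over all tested genes. In KYSE150 0 of 64 tested genes passed an adjusted p of 0.05 in limma, where 0.499% of all 17823 tested genes did, and 8 had an unadjusted p under 0.05, against 18.1% of all genes. In KYSE510 0 passed, against 0.0393% of all genes, and 5 had an unadjusted p under 0.05, against 6.35%. Averaged over lines 1 of 64 passed, against 0.539%, or 0.18% among falls, and this was the pseudogene AL645933.1; 2 had an unadjusted p under 0.05, against 11.5%. A difference of the silencing effect between lines was called for 0 genes of the stretch and 0.0% of all genes, with 10 at an unadjusted p under 0.05 against 12.2%. Median log2 changes of the 64 genes and of all tested genes were 0.06 and 0.08 in KYSE150, and -0.06 and -0.02 in KYSE510.

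AL645933.1 fell on silencing. Control libraries of KYSE150 had 1.23, 1.36 and 0.796 RPKM, and silenced replicates 1, 2 and 3 had 0.125, 0.291 and 0.670. Control libraries of KYSE510 had 1.502, 2.01 and 1.85 RPKM, and the silenced ones 0.958, 0.933 and 0.924. All silenced libraries thus lay below all controls of their line, though silenced replicate 3 of KYSE150 came close to control replicate 3. The counts behind these values were small, at 15, 17 and 11 reads in KYSE150 controls against 2, 5 and 11 in silenced libraries, and at 22, 31 and 31 against 14, 12 and 14 in KYSE510. The exact 95% Poisson intervals of the closest KYSE150 libraries overlapped, 0.334 to 1.20 for silenced replicate 3 and 0.397 to 1.42 for control replicate 3. Such intervals hold counting error alone, and PCR copies of a molecule count as separate reads in them.

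Means of the pseudogene were 1.13 ± 0.295 and 0.362 ± 0.279 RPKM in KYSE150, and 1.79 ± 0.262 and 0.938 ± 0.0177 in KYSE510 (control and silenced, SD, n = 3). The silenced mean was thus 32.1% of control in KYSE150 and 52.5% in KYSE510. The log2 change was -0.95 (SE 0.21, limma adjusted p 0.0739) in KYSE150 and -0.66 (SE 0.21, limma adjusted p 0.506) in KYSE510. Averaged over lines it was -0.81 (SE 0.15, limma adjusted p 0.0414), and lower in 6 of 6 same-numbered pairs. Leaving out single libraries ended the averaged call in 10 of 12 cases and kept it without KYSE150 control replicate 3 (limma adjusted p 0.0255) or silenced replicate 3 (0.0122), and the replicate block ended it (0.0606), in a range over alternatives from 0.0122 to 0.118. Sequencing depth moved with silencing, the silenced library being deeper than the control of the same number in 3 of 3 pairs of KYSE150. In KYSE510 the silenced library was shallower in 3 of 3 pairs, though barely so for replicate 1 (23992225 reads against 24055358 in the control). The part of depth in the result was not tested. The sequence that the silencing reagent targets is not given in the sources used here, so whether it also matches AL645933.1 was not tested.

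HCP5 itself had a lower value in silenced cells in 6 of 6 pairs, with an average log2 change of -0.49 (SE 0.14) over lines. Its limma adjusted p was 0.185, and 0.0295 with the replicate block, so that the block exchanged the called gene: HCP5 was then the 1 of 64 past the threshold, against 2.74% of all genes (0.679% among falls), and the pseudogene was not. HCP5 means were 0.770 ± 0.0220 and 0.437 ± 0.133 RPKM in KYSE150 and 1.39 ± 0.470 and 0.801 ± 0.257 in KYSE510 (control and silenced, SD, n = 3), on 26 to 147 reads a library. In KYSE150 all silenced libraries lay below all controls; in KYSE510 control replicate 1 (0.914) lay below silenced replicates 2 and 3 (0.951 and 0.948). How the authors' counting treated strand is not given in the sources used here. Without strand, reads in the 157 shared bases cannot be assigned to HCP5 or AL645933.1, so the pair is not 2 independent measurements.

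**Figure D1:**
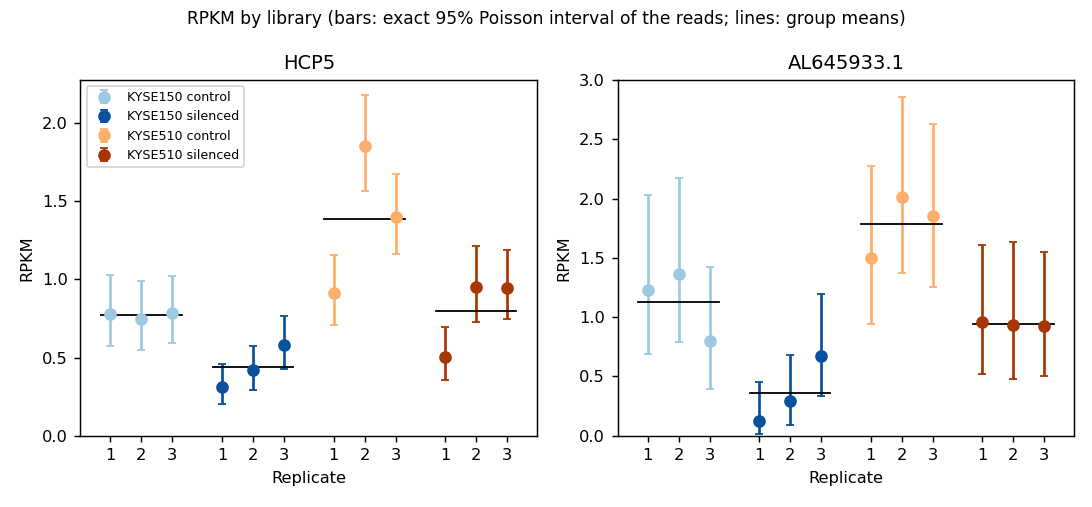
RPKM of HCP5 and of the pseudogene AL645933.1 in each of the 12 libraries, by replicate number; bars are exact 95% Poisson intervals of the reads and black lines are group means. The pseudogene lies lower in every silenced library than in every control of the same line, while HCP5 groups overlap in KYSE510.

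Genes at a distance from HCP5 showed no called change by silencing in either line without the replicate block; with it CLIC1, LSM2 and HSPA1B, all over 250 kb away, passed in KYSE150 (limma adjusted p 0.0389, 0.0434 and 0.0343). Distances were taken from the start of the second listed HCP5 exon to the start of each gene, with HCP5 and the pseudogene left out. Within 100 kb, 11 genes were tested, with median log2 changes of 0.04 in KYSE150 and -0.03 in KYSE510 and 0 called in either line. From 100 to 250 kb, 17 genes had medians of 0.12 and -0.09, and from 250 to 600 kb 34 genes had medians of 0.05 and -0.06, with 0 called in each without the block. The direct neighbours MICA and MICB did not pass. All silenced MICA libraries of KYSE150 (10.2, 10.4 and 9.73 RPKM) lay above all its controls (9.64, 8.78 and 8.64). MICA changed by 0.16 (limma adjusted p 0.428) in KYSE150 and -0.05 (0.978) in KYSE510, and MICB by -0.00296 and 0.15 (limma adjusted p 1 and 0.940). HLA-B changed by 0.12 and -0.00454 (limma adjusted p 0.747 and 1). Of the other nearest tested genes, the non-coding gene AL645933.2, listed as XXbac-BPG181B23.7, changed by 0.20 and 0.08, and the pseudogene PPIAP9 by -0.12 and -0.25 (limma adjusted p from 0.625 to 0.983).

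**Figure D2:**
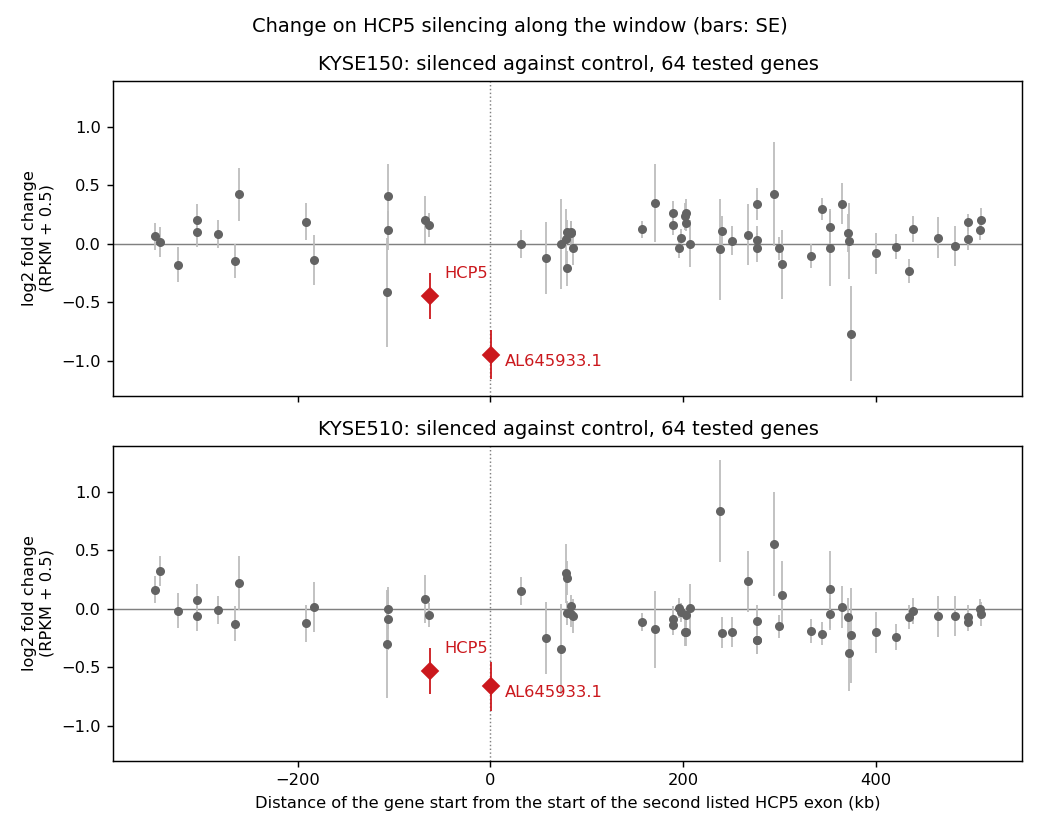
Log2 change on silencing against distance of the gene start from the second listed HCP5 exon (kb) for the 64 tested genes in KYSE150 (top) and KYSE510 (bottom); bars are standard errors. AL645933.1, in red, is the lowest point in both lines and HCP5 is also in red; the point next above AL645933.1 in KYSE150 is SNORD52 (-0.77), and the highest in KYSE510 is MIR4646 (0.84), both on few reads.

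Some genes of the stretch had silenced and control libraries that did not overlap without passing the threshold. In KYSE150 this held for 11 of 64 genes, against 19.2% of all tested genes, 9 of them with silenced libraries above (13.7% of all) and 2 with them below (5.47%). The largest of these differences at a mean of at least 1 RPKM were HSPA1B, LSM2, APOM and TCF19. LSM2, a subunit of the ring that binds U6 small nuclear RNA and decaying mRNA, had 10.1, 10.0 and 11.6 RPKM in controls and 11.9, 13.7 and 13.7 in silenced libraries (log2 change 0.30, limma adjusted p 0.170). APOM, the apolipoprotein that carries sphingosine-1-phosphate, had 7.64, 6.37 and 8.20 against 8.92, 9.10 and 8.78 (0.26, limma adjusted p 0.241). TCF19, a gene of the G1 to S transition, had 28.1, 27.0 and 29.4 against 30.8, 34.7 and 31.9 (0.20, limma adjusted p 0.454). In each of these genes the gap between the groups was smaller than the range within the controls.

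In KYSE510 the groups did not overlap in 6 of 64 genes, against 12.1% of all tested genes, 3 of them with silenced libraries above (5.22% of all) and 3 with them below (6.87%). DDX39B-AS1, antisense to the RNA helicase gene DDX39B, had 4.42, 5.48 and 5.72 RPKM in controls and 5.77, 6.29 and 6.94 in silenced libraries (log2 change 0.26, limma adjusted p 0.862). EHMT2-AS1, antisense to the histone methyltransferase gene EHMT2, had 17.8, 16.5 and 18.1 against 14.97, 16.3 and 13.1 (-0.24, limma adjusted p 0.786). Both antisense genes share bases with their partners, so their reads are uncertain without strand. Corneodesmosin, CDSN, a glue protein of the outer epidermis, had 0.293, 0.217 and 0.342 against 0.473, 0.538 and 0.425 (0.32, limma adjusted p 0.720), and shares 93.8% of its bases with PSORS1C1 on the opposite strand. Beside HCP5 and the pseudogene, the valyl-tRNA synthetase gene VARS was lower in 6 of 6 pairs, with an averaged change of -0.15 (limma adjusted p 0.488). Higher in 6 of 6 pairs were AL645933.2 (0.14, limma adjusted p 0.784) and the non-coding gene AL662844.3 (0.32, limma adjusted p 0.505). Both rest on few reads, 0 to 17 a library for AL645933.2. AL662844.3 had 0, 1 and 1 reads in KYSE510 controls and 1, 2 and 2 in silenced libraries. It also shares 61.9% of its bases with HCG27 on the opposite strand. The share of all tested genes with 6 of 6 pairs in the same direction was not computed.

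The replicate block rests on a pairing that the labels do not state and that was taken from correlations in these same values. With the block, 3 genes of the stretch (4.69%) passed in KYSE150, all higher, against 6.7% of all genes in that fit (5.04% among rises). CLIC1 had 64.7, 58.4 and 80.5 RPKM in controls and 79.4, 82.6 and 94.7 in silenced libraries. HSPA1B, an inducible HSP70 chaperone gene, had 121, 142 and 141 against 160, 191 and 164. CLIC1 and HSPA1B both changed by 0.34 and LSM2 by 0.30, with limma adjusted p-values of 0.0389, 0.0343 and 0.0434 with the block and 0.243, 0.329 and 0.170 without. In KYSE510 they changed by -0.10, 0.01 and -0.21 and 0 genes passed with the block, against 0.112% of all genes. The difference between lines had limma adjusted p-values of 0.117, 0.123 and 0.109 with the block. HSPA1B shares 71.4% of its 50-base words with HSPA1A, so their reads are uncertain; HSPA1A changed by -0.03 in KYSE150 (limma adjusted p 0.985).

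**Figure D3:**
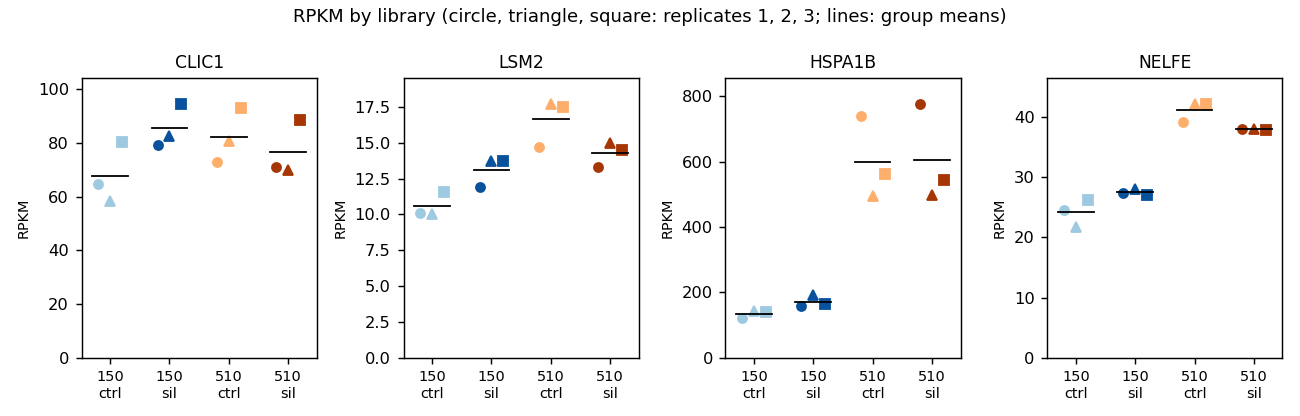
RPKM of CLIC1, LSM2, HSPA1B and NELFE by library in the 4 groups; marker shapes give replicate numbers and lines give group means. Within KYSE150 each silenced library lies above the control of the same number for all 4 genes, and LSM2, HSPA1B and NELFE groups do not overlap.

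Grouped by role, the genes of RNA handling and translation (8 of 8 tested) had 7 higher and 1 lower value in silenced KYSE150. In silenced KYSE510 all 8 had lower values, and 0 were called in either line. Their median changes were 0.15 and -0.09, beside 0.08 and -0.02 over all tested genes. The 14 tested enzymes, chaperones and regulators of class III were higher in 10 in KYSE150 and lower in 12 in KYSE510, where the whole stretch had 40 of 64 higher in KYSE150 and 45 of 64 lower in KYSE510. Their medians were 0.09 and -0.09, again with 0 called. The 4 class I and stress-ligand genes had medians of 0.14 and -0.03, and the 3 HSP70 genes of 0.15 and 0.01, with 0 called in either line. Outside the stretch, 15 genes of class I presentation had medians of 0.01 and -0.07 with 0 called. Of 16 HSP70 relatives and cofactors elsewhere, HSPA2, a testis-enriched HSP70, rose on average over lines (0.35, limma adjusted p 0.0346) and the other 15 did not pass.

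The lines differed in most tested genes, within the stretch and over all genes alike. Between controls 44 of 64 genes of the stretch passed (68.8%), near the 62.0% of all tested genes. Of these, 36 were higher in KYSE510 (28.3% of all genes) and 8 higher in KYSE150 (33.7%). The median difference of KYSE510 over KYSE150 was 0.46 for the stretch and -0.07 for all tested genes. Differences of at least 1 on the log2 scale numbered 14 higher in KYSE510 and 4 higher in KYSE150. The share of all tested genes past this cut was not computed, so these counts have no background beside them. Controls of the lines are 3 libraries each of 1 line, so these are differences between lines, which cannot be told apart from differences in culture or preparation of those libraries. Lines and silencing comparisons share the control libraries. The share of all tested genes whose control groups do not overlap was not computed either, so non-overlap between lines is given below as a description.

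**Figure D4:**
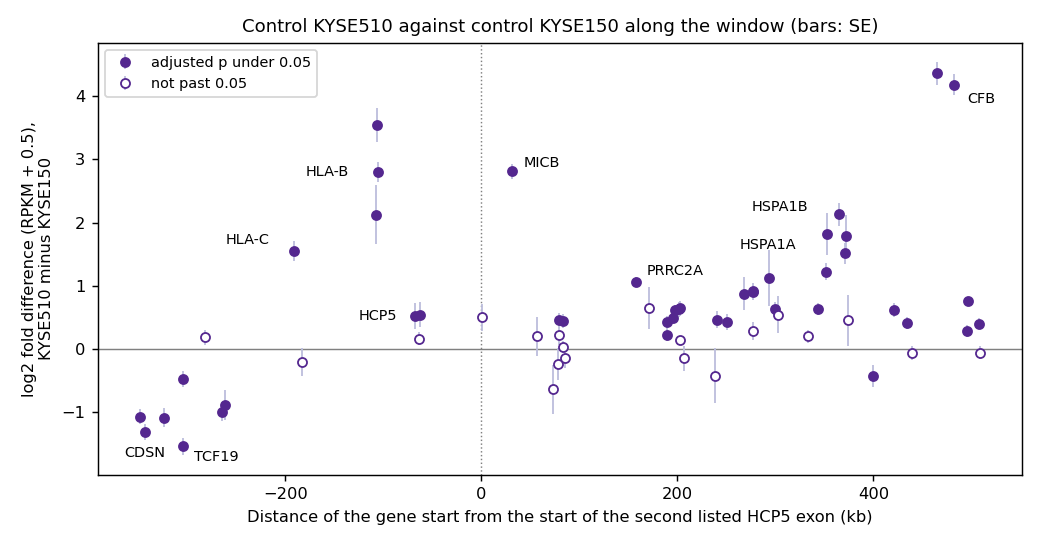
Log2 difference of control KYSE510 over control KYSE150 against distance of the gene start from the second listed HCP5 exon (kb) for the 64 tested genes; bars are standard errors and filled points pass an adjusted p of 0.05. Points left of HLA-C lie mostly below 0 and the highest points are CFB, MICB and HLA-B with genes that overlap CFB and HLA-B.

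The class I genes were higher in KYSE510. HLA-B had 11.998, 10.5 and 16.3 RPKM in KYSE150 controls and 83.7, 83.5 and 110 in KYSE510 controls, a log2 difference of 2.80 (SE 0.16, limma adjusted p 6.80e-08). HLA-C had 47.8, 41.4 and 62.5 against 129, 141 and 176, a difference of 1.55 (SE 0.16, limma adjusted p 6.62e-06). The groups did not overlap for either gene, and silenced libraries of each line lay with their controls. Words of 50 bases were shared with other annotated genes for 17.8% of HLA-B, with an overlapping pseudogene and class I relatives, and for 5.70% of HLA-C, with class I relatives. Class I genes vary between people far more than most genes do, so reads of these genes are uncertain. AL671883.2, a pseudogene opposite HLA-B listed as XXbac-BPG248L24.12, differed by 3.54 (SE 0.27, limma adjusted p 5.49e-07) and shares 542 bases with it. Of 15 genes of class I presentation outside the stretch, 9 were higher and 4 lower in KYSE510, against 28.3% and 33.7% of all tested genes, with a median of 0.49 beside -0.07. Class I genes among them went both ways: HLA-E and HLA-F were lower in KYSE510 by -0.91 and -1.68, while HLA-G was higher by 1.92, with limma adjusted p-values from 7.60e-07 to 1.35e-05. B2M, the shared light chain of class I molecules, was higher in KYSE510 by 1.28, the peptide-loading gene TAPBP by 2.09 and the immunoproteasome genes PSMB8 and PSMB9 by 1.37 and 2.27 (limma adjusted p from 6.25e-07 to 1.72e-05). NLRC5 and TAP2 of the same list were lower in KYSE510, by -0.51 and -0.27 (limma adjusted p 0.0113 and 0.0146).

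Of the stress ligands, MICB passed this test and MICA did not. MICB had 0.196, 0.122 and 0.126 RPKM in KYSE150 controls and 3.46, 4.09 and 4.70 in KYSE510 controls, a difference of 2.82 (SE 0.12, limma adjusted p 4.27e-09). The KYSE150 values rest on 11, 7 and 8 reads. MICA had 9.64, 8.78 and 8.64 against 11.9, 8.81 and 10.0, with overlapping groups and a difference of 0.16 (SE 0.10, limma adjusted p 0.184). The pair shares few 50-base words (1.89% of MICA and 1.61% of MICB), and the difference between the 2 genes' differences was not tested. HCP5, whose second listed exon lies between them, was higher in KYSE510 by 0.54 (SE 0.20, limma adjusted p 0.0320). That call was lost with no filter (limma adjusted p 0.0701) and on leaving out any control library other than KYSE510 replicate 1 (limma adjusted p up to 0.135). The pseudogene AL645933.1 had a difference of 0.50 that did not pass (limma adjusted p 0.0557).

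The HSP70 genes were higher in KYSE510 too. HSPA1A had 87.2, 107 and 55.2 RPKM in KYSE150 controls and 436, 216 and 242 in KYSE510 controls, a difference of 1.81 (SE 0.33, limma adjusted p 0.000565). HSPA1B had 121, 142 and 141 against 739, 494 and 561, a difference of 2.13 (SE 0.18, limma adjusted p 1.24e-06). HSPA1L, a relative expressed mainly in testis, had 0.117, 0.211 and 0.104 against 1.11, 1.04 and 0.857 (1.22, limma adjusted p 1.33e-05). The lines did not overlap for any of the 3 genes, and replicate 1 of KYSE510 was the highest for HSPA1A and HSPA1B in both its control and its silenced library. Of 16 HSP70 relatives and cofactors elsewhere, 3 were higher and 6 lower in KYSE510, against 28.3% and 33.7% of all tested genes, with a median of -0.25 beside -0.07. HSPA2 and the stress-inducible HSPA6 were among the higher, by 2.59 and 1.34, and the small heat shock protein gene HSPB1 and the HSP70 cofactor gene BAG3 among the lower, by -2.08 and -0.98 (limma adjusted p from 6.85e-10 to 4.98e-05).

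**Figure D5:**
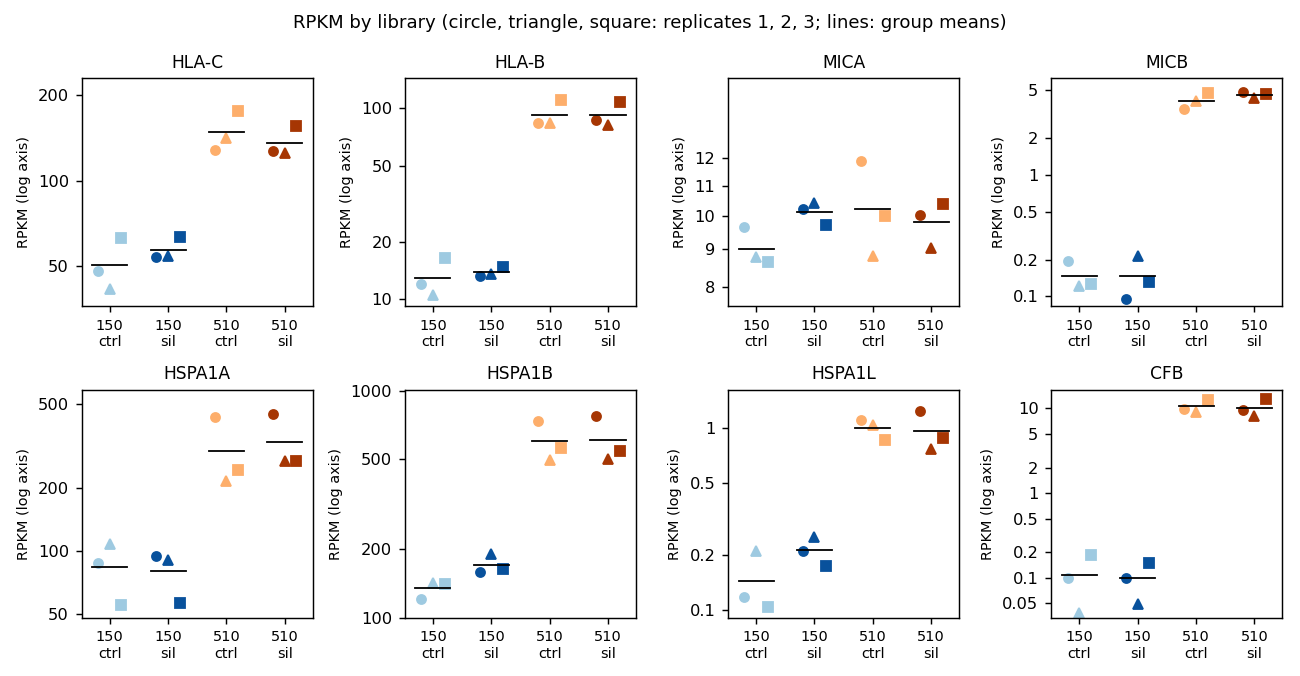
RPKM on log axes of HLA-C, HLA-B, MICA, MICB, HSPA1A, HSPA1B, HSPA1L and CFB by library in the 4 groups; marker shapes give replicate numbers and lines give group means. KYSE510 lies above KYSE150 for each gene other than MICA, with silenced libraries near the controls of their line.

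Complement factor B, CFB, the protease subunit of the alternative pathway, was close to silent in KYSE150 and present in KYSE510. Its RPKM was 0.0999, 0.0390 and 0.185 in KYSE150 controls, on 10, 4 and 21 reads, and 9.82, 9.19 and 12.8 in KYSE510 controls, on 1161 to 1753 reads. The difference was 4.18 (SE 0.17, limma adjusted p 2.93e-09). AL645922.1, a readthrough of C2 and CFB listed as XXbac-BPG116M5.17, differed by 4.36 and lies wholly within exons of those genes. C2, which encodes a protease of the classical pathway, was not tested, with 0.243, 0.211 and 0.270 RPKM in KYSE150 controls and 0.390, 0.614 and 0.485 in KYSE510 controls. The complement genes C4A and C4B lie beyond the stretch and were higher in KYSE510 by 1.08 and 1.88 (limma adjusted p 5.93e-05 and 4.05e-06); they are near-identical copies, so their shares of reads are uncertain.

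Genes higher in KYSE150 lay together at one end of the stretch. Before HLA-C, 7 of 8 tested genes were higher in KYSE150 and 0 higher in KYSE510, with a median difference of -1.03. From HLA-C on, 36 of 56 were higher in KYSE510 and 1 higher in KYSE150, NEU1, the lysosomal sialidase gene, with a median of 0.51. Of all tested genes, 33.7% passed as higher in KYSE150 and 28.3% as higher in KYSE510, with a median of -0.07. This division was chosen after the values were seen and is a description. TCF19 had 28.1, 27.0 and 29.4 RPKM in KYSE150 controls and 10.1, 8.27 and 9.83 in KYSE510 controls (difference -1.54, SE 0.14, limma adjusted p 2.06e-06). CDSN had 1.49, 1.64 and 1.21 against 0.293, 0.217 and 0.342 (-1.31, SE 0.13, limma adjusted p 4.98e-06). The psoriasis-region genes PSORS1C1 and PSORS1C2 differed by -1.07 and -1.08, and the antisense gene AL662844.4, listed as XXbac-BPG299F13.17, by -0.99 (limma adjusted p from 1.01e-05 to 0.000125). The groups did not overlap for any of these 5 genes, which follows largely from their choice as the most higher in KYSE150 and is no further support. CDSN and PSORS1C2 share bases with PSORS1C1 on the opposite strand, so those 3 are not separate measurements without strand.

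The stretches on either side differed in opposite directions. Between 30 and 31 Mb of chromosome 6, 43 of 61 genes were tested, 33 were higher in KYSE150 and 4 higher in KYSE510, with a median difference of -0.84. Over all tested genes 33.7% were higher in KYSE150 and 28.3% in KYSE510, with a median of -0.07. Between 32 and 33 Mb, 29 of 49 genes were tested, 18 were higher in KYSE510 and 3 higher in KYSE150, with a median of 0.77. By silencing, 0 genes passed in either neighbouring stretch in either line.

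The remaining groups of the stretch ranged from genes near silence in both lines to genes higher in KYSE510. The genes of tumour necrosis factor and its relatives, TNF, LTA and LTB, and the leukocyte genes LST1 and AIF1 were at or below 0.185 RPKM in every library. NFKBIL1, the only tested gene of that cluster, had 5.08, 4.65 and 5.99 RPKM in KYSE150 controls and 5.23, 4.96 and 5.80 in KYSE510 controls (0.03, limma adjusted p 0.821). Of 6 LY6 genes 1 was tested, LY6G5B, which differed by -0.15 (limma adjusted p 0.548). Of 8 genes of RNA handling and translation 5 were higher in KYSE510 and 0 higher in KYSE150, against 28.3% and 33.7% of all tested genes. Their median was 0.37, beside -0.07. Among the 5 were PRRC2A by 1.06 (limma adjusted p 2.65e-07) and NELFE by 0.76 (limma adjusted p 4.11e-06). NELFE encodes a subunit of the complex that holds RNA polymerase II near the start of genes. Of 14 enzymes, chaperones and regulators 10 were higher in KYSE510 and 1 was higher in KYSE150, against 28.3% and 33.7% of all tested genes, with a median of 0.42 beside -0.07. C6orf48, a host of small nucleolar RNAs, was higher in KYSE510 by 1.51 (limma adjusted p 9.64e-06).

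The 8 small RNA genes were all tested but rested on few reads. SNORD48, which lies in C6orf48, had 7, 4 and 13 reads in KYSE150 controls and 26, 38 and 34 in KYSE510 controls (difference 1.79, limma adjusted p 0.000568). MIR6891, which lies within HLA-B, had 1, 0 and 2 reads against 10, 5 and 11 (2.13, limma adjusted p 0.00188). MIR4646 had 0 or 1 read in every library, and its log2 change of 0.84 in KYSE510, the highest in that line, rests on such counts.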

How the data were processed

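RNA was sequenced from 12 libraries of KYSE150 and KYSE510. The authors deposited RPKM per gene; HISAT2, DESeq and GRCh38 are named in the submitters' processing notes, without roles, and the annotation release and the use of strand are not given in the sources used here. RPKM times exon length was a whole multiple of 1 step per library for 100% of values, which gave the reads behind each value. Depths were 20035025 to 28202422 reads, and 3 reads in 1 kb are 0.106 to 0.150 RPKM. Log2(RPKM + 0.5) of genes with 0.5 RPKM in 3 libraries was fitted with limma 3.58.1 in R 4.3.3 (4 group means, 8 residual degrees of freedom, trend), two-sided, adjusted by Benjamini-Hochberg over 17823 genes. The fit was tested on simulated data.

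Members follow from position alone, but the stretch and the lists were chosen with earlier results of these data known. Named genes were HCP5, called genes, the largest non-overlapping changes per line (4 each way, mean of at least 1 RPKM), the 5 most abundant, the 3 tested neighbours on each side, the 5 most different each way between control lines, and the tested immune-ligand, TNF, HSP70 and complement genes. VARS, GENCODE AL662844.3, PRRC2A, C6orf48 and small RNAs were added after their values were seen. Replicate numbers were taken to pair libraries, since deviations from group means correlated at 0.147 to 0.415 in all 6 same-numbered pairs and at -0.385 to 0.184 otherwise; this block left 4 residual degrees of freedom. Alternatives varied pseudocount, filter, scaling, moderation, block and libraries, and used voom on recovered reads. Promoters are RefSeq's on GRCh38.p14. One gene of the class I presentation list is not reported here. Columns of values without a sample numbered 0.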

Additional observations from a re-analysis of the deposited data

Results flagged for a closer look

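NELFE stood out because every silenced library lay above every control in KYSE150 and below every control in KYSE510. In KYSE150 the controls had 24.6, 21.8 and 26.3 RPKM and the silenced libraries 27.3, 28.1 and 27.1. In KYSE510 these were 39.2, 42.2 and 42.2 against 38.0, 38.1 and 37.8. The change in KYSE510 minus that in KYSE150 was -0.30 on the log2 scale (SE 0.10), and the limma adjusted p of this difference was 0.394, and 0.141 with the replicate block, so it did not pass. Neither line passed alone (limma adjusted p 0.236 in KYSE150 and 0.903 in KYSE510). Of all tested genes, 13.7% had every silenced library above every control in KYSE150 and 6.87% had every one below in KYSE510. The share of all tested genes with both was not computed.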

How the results depend on the processing

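Counts of called genes among the 64 moved as follows. In KYSE150 the count of 0 became 1 after centring and after quantile normalization, 3 with the replicate block that pairs libraries, and 7 (4 higher, 3 lower) with voom on recovered reads and the block; leaving out 1 library gave 0 to 1, with 1 without KYSE150 control replicate 3 or silenced replicate 3, the pseudogene AL645933.1 each time. In KYSE510 the count of 0 became 1, HCP5, with voom and the block, and stayed at 0 in the fits that left out 1 library. The averaged count of 1 became 0 with a pseudocount of 0.1 and with no filter, 3 with voom and the block, and 0 to 1 on leaving out a library. It was also 0 among the 18 genes that share no exon base, but these leave out AL645933.1 and HCP5 by definition, so that value was fixed in advance. The difference between lines went from 0 to 5 (CLIC1, LSM2, HSPA1B, CSNK2B and its readthrough) with voom and the block. Between control lines the count was 12 (10 higher in KYSE510) among genes sharing no exon base, fewer genes being tested, and 37 to 44 on leaving out a library; this comparison lies between blocks and has no blocked value. Shares of all tested genes called are given above for the main fit and the replicate block alone. Counts of the stretch under the other alternatives thus have no background beside them and are no result about the stretch. For the other moves the cause was not tested.

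Of 22 called values of the 27 named genes 0 changed sign under an alternative, and 3 lost the call under some: the averaged fall of AL645933.1, and the line differences of HCP5 and AL645933.2. Of 61 uncalled values 28 changed sign. Depth limits AL645933.1, on 2 to 31 reads a library, HCP5, on 26 to 147, AL645933.2, AL662844.3 and the small RNA genes.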
